A study of Mus musculus with 8 samples.

Results

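The regions described are the peaks of anti-NONO and IgG RNA immunoprecipitation that lay over a long non-coding gene and over no protein-coding gene body. They were chosen by position alone: a peak had to overlap, by at least 1 bp, a gene that GENCODE mouse release 21 types as lincRNA, antisense, processed transcript, sense intronic, sense overlapping, bidirectional promoter or macro long non-coding RNA, and Neat1 was left out. Of 206501 peaks in the 4 deposited lists, 4115 met this rule, and they lay on 947 genes of 7781 that are not wholly inside a protein-coding body.

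Long non-coding RNAs are transcripts with no evident protein product, and many stay in the nucleus. Some are precursors of microRNAs, which are cut from hairpins in the primary transcript by the nuclear Drosha and DGCR8 complex, and others act at the chromosome from which they are made. NONO is a nuclear RNA-binding protein of the DBHS family that forms dimers with SFPQ or PSPC1, is a component of paraspeckles (nuclear bodies built on Neat1) and binds introns and non-coding transcripts.

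The RNA came from NONO immunoprecipitates of liver nuclei. The mice were wild-type C57BL/6 animals aged 14 weeks, under a cycle of 12 h light to 12 h dark, and had food in the dark phase alone during the week before collection. Livers came from fasted mice at zeitgeber time (ZT, hours after lights on) 10, from mice re-fed for 2 h (ZT14) and from mice re-fed for 10 h (ZT22), so that feeding state and time of day cannot be told apart. The control was 1 immunoprecipitate with IgG, whose feeding state and time the labels do not give, and each of the 4 immunoprecipitates had its own input, for 8 samples. Every sample was a pool of 2 experiments and each group had 1 library, so no difference between lists has a replicate error, and none was tested. The immunoprecipitates held between 18275033 and 21091048 tags, and the authors' lists held 38209 peaks (fasted), 61737 (2 h), 50609 (10 h) and 55946 (IgG). A single IgG peak over the 7SK RNA gene took so many IgG tags that IgG values rise 1.60-fold when scaled to the tags outside it. That second value is given in the text where the NONO and IgG tags of a gene or of a named peak are set side by side. Medians of tags per peak, counts by tag number and the figures use the deposited scale. All peaks are listed on the plus strand, so the strand of the RNA is not known, and fewer cells holding an RNA and less RNA per cell cannot be told apart in these bulk samples.

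A NONO peak is called IgG-free where it shares not even 1 bp with a peak of the IgG list. The sequences below are shown because the IgG-free peak with the most tags in the fasted and in the 2 h list, and the one ranked next to the top at 10 h, covered let-7 hairpins. The 5 mature let-7 microRNAs whose hairpins lay under NONO peaks on long non-coding genes share 1 seed (bases 2 to 8, in capitals). Mature sequences are RefSeq's, on GRCm38.p6, the assembly called mm10.
let-7a-5p: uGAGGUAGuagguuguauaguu
let-7f-5p: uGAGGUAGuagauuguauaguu
let-7d-5p: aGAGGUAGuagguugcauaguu
let-7b-5p: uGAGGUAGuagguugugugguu
let-7c-5p: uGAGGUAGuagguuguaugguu

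The first 3 come from hairpins inside 6720427I07Rik, and the last 2 from hairpins at the 3′ end of Lncppara. A hairpin under a peak at all 3 times was also found for miR-16, from Dleu2, for miR-29a and miR-29b, which share a seed, and for miR-30c. Their mature strands are given with the seed in capitals.
miR-16-5p: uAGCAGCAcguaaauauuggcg
miR-29a-3p: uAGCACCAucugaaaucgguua
miR-29b-3p: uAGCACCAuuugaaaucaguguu
miR-30c-5p: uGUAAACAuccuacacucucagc

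The Mir17hg cluster lay under peaks of the fasted and 2 h lists. Its miR-19a-3p and miR-19b-3p share a seed, and so do its miR-17-5p and miR-20a-5p, which are printed.
miR-17-5p: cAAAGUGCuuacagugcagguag
miR-20a-5p: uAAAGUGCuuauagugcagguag

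The let-7a hairpin lies in exon 2 of 6720427I07Rik, which is transcribed from the minus strand. The stretch at chr13:48538165-48538284, from the GENCODE transcript, is printed with the mature let-7a bases in capitals.
6720427I07Rik exon: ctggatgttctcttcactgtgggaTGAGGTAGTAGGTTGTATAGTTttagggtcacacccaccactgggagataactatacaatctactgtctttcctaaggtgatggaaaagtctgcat

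Peaks on long non-coding genes alone came to 706 in the fasted list (1.85%, 95% exact Clopper-Pearson interval 1.72 to 1.99), 1176 at 2 h (1.90%, 1.80 to 2.02), 1124 at 10 h (2.22%, 2.09 to 2.35) and 1109 for IgG (1.98%, 1.87 to 2.10). Protein-coding genes alone accounted for 88.9% (fasted), 88.5% (2 h), 88.1% (10 h) and 88.5% (IgG) of peaks. These intervals cover counting error only. Long non-coding genes were thus a small share of every list, the IgG list included. The 10 h interval lay above those of the fasted and 2 h lists and overlapped that of IgG. The peaks lay on 350 genes (fasted), 585 (2 h), 530 (10 h) and 524 (IgG), and 814 of the 947 genes had a peak in at least 1 NONO list, whereas 133 had peaks in the IgG list alone.

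Most of these genes carried a single peak, namely 68.0% of 350 genes (fasted), 70.8% of 585 (2 h), 68.1% of 530 (10 h) and 70.4% of 524 (IgG). Tags are given normalised to a library of 10000000, and a median peak held 16.2 of them (fasted), 17.1 (2 h), 18.6 (10 h) and 13.2 (IgG), over a median width of 500, 666, 633 and 637 bp. Scaled to the tags outside the 7SK peak, the IgG median would be 1.60-fold higher and so above the NONO medians. Tags were concentrated in few peaks. The 10 largest peaks of each list held 26.1% (fasted), 23.8% (2 h), 16.5% (10 h) and 30.0% (IgG) of the tags of all its long non-coding peaks. An exon of a long non-coding gene was touched by 25.2% of the peaks (fasted), 30.7% (2 h), 24.9% (10 h) and 25.7% (IgG), so that most peaks lay in introns. The genes with a peak were longer than those without, with a median of 12.1 kb against 6.90 kb.

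The label was checked against a second annotation. RefSeq gives 541 of the 947 genes as long non-coding and has no entry of the same symbol for 386, while it gives 13 as protein-coding (among them Zswim6, Cct6a, Trerf1 and Ptpmt1), 5 as transcribed pseudogenes and 2 as pseudogenes. A further 3 genes, Gm26917, Gm42418 and AY036118 on chromosome 17, lie at a ribosomal RNA locus and are described on their own. In all, 415 of the 947 genes run partly over a protein-coding gene elsewhere along their length, and peaks there are no members.

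An IgG peak was absent over 72.1% of the fasted peaks (509 of 706, 68.6 to 75.4), 60.9% of the 2 h peaks (716 of 1176, 58.0 to 63.7) and 66.9% of the 10 h peaks (752 of 1124, 64.1 to 69.7). Over all peaks of each list the same share was 66.3% (fasted), 60.7% (2 h) and 60.5% (10 h). The intervals of the fasted and 10 h shares thus lay above the share of their whole list, and that of the 2 h share did not. They count each peak as independent, although several can lie on 1 gene, such as 38 IgG-free peaks on Mir99ahg at 10 h. Median width was 500 bp in the fasted list, next to 625 bp over all its peaks, and 633 next to 643 bp at 10 h. The part of width in these shares was not tested. Peaks that met no IgG peak were the smaller ones, with a median of 14.3 normalised tags against 20.4 for those that met one in the fasted list, 12.8 against 27.5 at 2 h and 14.8 against 28.8 at 10 h. The same IgG list served all 3 times. Of the 3 large gene types, processed transcripts had the lowest IgG-free shares, with 152 of 237 peaks (fasted), 170 of 309 (2 h) and 196 of 308 (10 h). LincRNA genes had 250 of 334, 353 of 571 and 356 of 535, and antisense genes had 98 of 127, 184 of 287 and 190 of 265, in the same order.

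The gene with the most tags on IgG-free peaks over the 3 times was a microRNA host. 6720427I07Rik (chr13:48532905-48546500, minus strand, 13.6 kb), which holds the let-7a-1, let-7f-1 and let-7d hairpins, carried 1599 normalised tags in the fasted list, 2206 at 2 h, 564.7 at 10 h and 19.5 in IgG (31.2 outside the 7SK peak). All NONO peaks on it were IgG-free, since the only IgG peak lay near the 5′ end of the gene. In the fasted list 1 peak from 48535269 to 48538554 covered all 3 hairpins. At 2 h a peak of 6935 bp covered them with 2008 tags, and at 10 h a peak of 944 bp with 479.3 tags covered the let-7d hairpin alone. The stretch that all 3 times share lies in exon 2 and spans 945 bases, with 35.6% G or C. Fold over input was 2.58 (fasted), 2.36 (2 h) and 2.07 (10 h), near the 2-fold that the authors required, against 620.8, 934.8 and 272.9 normalised input tags.

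Dleu2 (chr14:61602839-61682373, minus strand, 79.5 kb), host of miR-16-1, carried 2179 tags (fasted), 2121 (2 h), 1565 (10 h) and 590.8 (IgG, 945.0 outside the 7SK peak). Its largest peak lay over the miR-16-1 hairpin at each time, with 1293 tags in the fasted list, 974.8 at 2 h and 680.2 at 10 h. The same peak covers Gm26916, a gene of 0.931 kb on the opposite strand, and without strand the 2 genes cannot be told apart there. IgG had a peak of 35.8 tags (57.3 outside the 7SK peak) that overlapped it, so the most tagged Dleu2 peak was not counted as IgG-free, and the IgG-free peaks, 4 of 12 (fasted), 8 of 18 (2 h) and 6 of 13 (10 h), held 323.8, 523.4 and 348.0 tags.

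**Figure D1:**
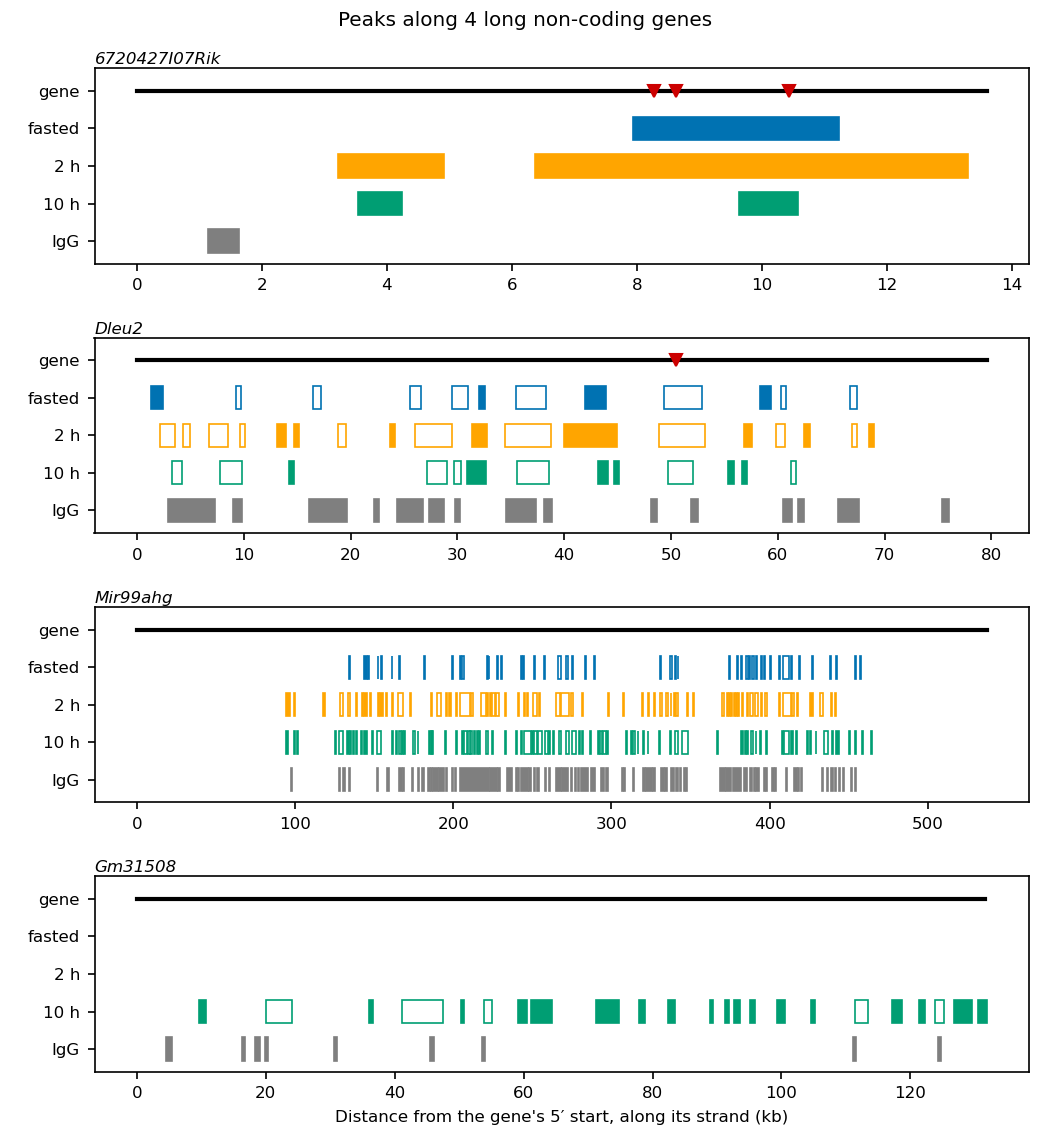
Peaks along 6720427I07Rik, Dleu2, Mir99ahg and Gm31508, by distance in kb from the 5′ start of each gene along its strand, in rows for the gene (black line), the 3 NONO lists and IgG. Filled NONO boxes met no IgG peak, open ones did, IgG boxes are grey, and red triangles are microRNA hairpins under a peak: the let-7 hairpins sit under the large fasted and 2 h peaks, and Gm31508 has no peak in the fasted and 2 h lists.

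Hairpins were found under 8 of 706 fasted peaks (1.13%, exact Clopper-Pearson interval 0.490 to 2.22), 13 of 1176 at 2 h (1.11%, 0.590 to 1.88), 7 of 1124 at 10 h (0.623%, 0.251 to 1.28) and 2 of 1109 in IgG (0.180%, 0.0218 to 0.650). On peaks over protein-coding genes alone the same share was 0.0971% (fasted), 0.0785% (10 h) and 0.0707% (IgG), and at 2 h 60 of 54620 peaks covered one. The interval over long non-coding genes thus lay above the share over protein-coding genes in the 3 NONO lists. In the IgG list the interval holds the protein-coding value, and it overlaps the intervals of the NONO lists. Among these peaks 4 (fasted), 8 (2 h), 4 (10 h) and, by definition, none of the IgG peaks were IgG-free. In total 26 microRNA genes lay under a NONO peak, 6 of them at all 3 times, and 2 of the 26 also lay under an IgG peak. With peaks of at least 4-fold over input only 1 (fasted), 2 (2 h), 1 (10 h) and 1 (IgG) remained over a hairpin.

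Of 62 long non-coding genes that hold a microRNA on their own strand, 23 (37.1%) had a peak in some list, IgG included, against 12.2% of all 7781 eligible genes. By list these were 14 (fasted), 20 (2 h), 16 (10 h) and 14 (IgG), so the IgG list held as many hosts as the fasted list. Host genes were also longer, with a median of 21.1 kb against 7.32 kb, and the part of length in this difference was not tested. An IgG-free peak at all 3 times was found on 10 of the 62, among which 3110039I08Rik and Gm49317 overlap and had the same NONO tags at each time. Lncppara, whose 3′ end holds the let-7c-2 and let-7b hairpins, carried 104.2 tags (fasted), 388.2 (2 h), 276.9 (10 h) and 358.0 (IgG, 572.7 outside the 7SK peak). Its peak over the let-7b hairpin met no IgG peak and held 38.5, 147.9 and 67.3 tags by time, of which the 2 h peak also covered let-7c-2.

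Among the other hosts, Mir142hg, the precursor of a microRNA of blood cells, carried 55.2 tags (fasted), 96.7 (2 h), 65.1 (10 h) and no IgG peak. Mir17hg, the host of the miR-17 cluster, carried 75.6 tags in the fasted and 120.5 in the 2 h list and had no peak at 10 h or in IgG. The miR-30c-2 hairpin, inside Gm27028, lay under peaks of 406.0 (fasted), 607.8 (2 h) and 483.2 tags (10 h), but the IgG peak there spanned 27692 bp and held 2233 tags (3572 outside the 7SK peak). The hairpins of miR-29a and miR-29b-1, by Gm27019, lay under a peak of 152.1 tags in the fasted list, 52.6 at 2 h and 32.8 at 10 h, all of which met an IgG peak of 9.48 tags (15.2 outside the 7SK peak). Mir155hg, a host known from activated immune cells, had 1 peak of 7.59 tags, at 2 h.

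Among long genes with many peaks, Mir99ahg (537 kb), named as a microRNA host gene, had the most. It carried 47 peaks with 1058 tags in the fasted list, 70 with 1696 at 2 h, 86 with 3348 at 10 h and 75 with 1997 in IgG (3195 outside the 7SK peak). IgG-free were 15 (fasted), 22 (2 h) and 38 (10 h) of the peaks, with 265.2, 321.4 and 930.1 tags. Both its total and its IgG-free tags were highest at 10 h. Normalised input tags under its peaks were highest there too, with 384.3 (fasted), 544.9 (2 h) and 1394 (10 h). Fold over input was lowest at 10 h, with 2.75 (fasted), 3.11 (2 h) and 2.401 (10 h). On peaks of at least 4-fold, tags were highest at 2 h, with 99.9 (fasted), 306.8 (2 h) and 211.2 (10 h). IgG, with 582.5 such tags as deposited, stood above all 3 times on either scale. In lists cut to equal length by score the 2 h list kept 34 peaks with 1021 tags, 7 of them IgG-free, which puts 2 h below the fasted list, while 10 h stayed highest with 3251 tags. Covered length was 35886 bp (fasted), 87660 bp (2 h) and 89562 bp (10 h), which gives 29.5, 19.3 and 37.4 tags per kb of peak.

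Lncpint, a nuclear RNA that is induced by p53, carried 1387 tags (fasted), 3752 (2 h), 1095 (10 h) and 2021 (IgG, 3232 outside the 7SK peak). Its IgG-free peaks held only 641.8, 248.0 and 241.3 tags by time, so that most tags of the 2 h list lay where IgG had a peak. A330023F24Rik, a gene of 61.5 kb near the complement regulator gene Cd46, carried 550.6 (fasted), 867.3 (2 h), 548.8 (10 h) and 330.2 tags (IgG, 528.2 outside the 7SK peak), of which 353.2, 402.1 and 314.6 were on IgG-free peaks. Its IgG-free tags thus lay within a narrower range than its total. By number of IgG-free peaks, Mir99ahg was followed by Zswim6, Gm40438 and 2210408F21Rik, of which RefSeq gives Zswim6 as protein-coding. Gm40438 had 14 (fasted), 12 (2 h) and 12 (10 h) IgG-free peaks, with 127.4, 138.0 and 156.1 tags, and 2210408F21Rik, which lies beside Lncpint, had 13, 9 and 9, with 272.5, 102.5 and 177.9 tags. In lists of equal length these counts became 14, 1 and 5 for Gm40438, 13, 2 and 9 for 2210408F21Rik and 14, 5 and 3 for Zswim6, so neither the counts over the times nor this order held.

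**Figure D2:**
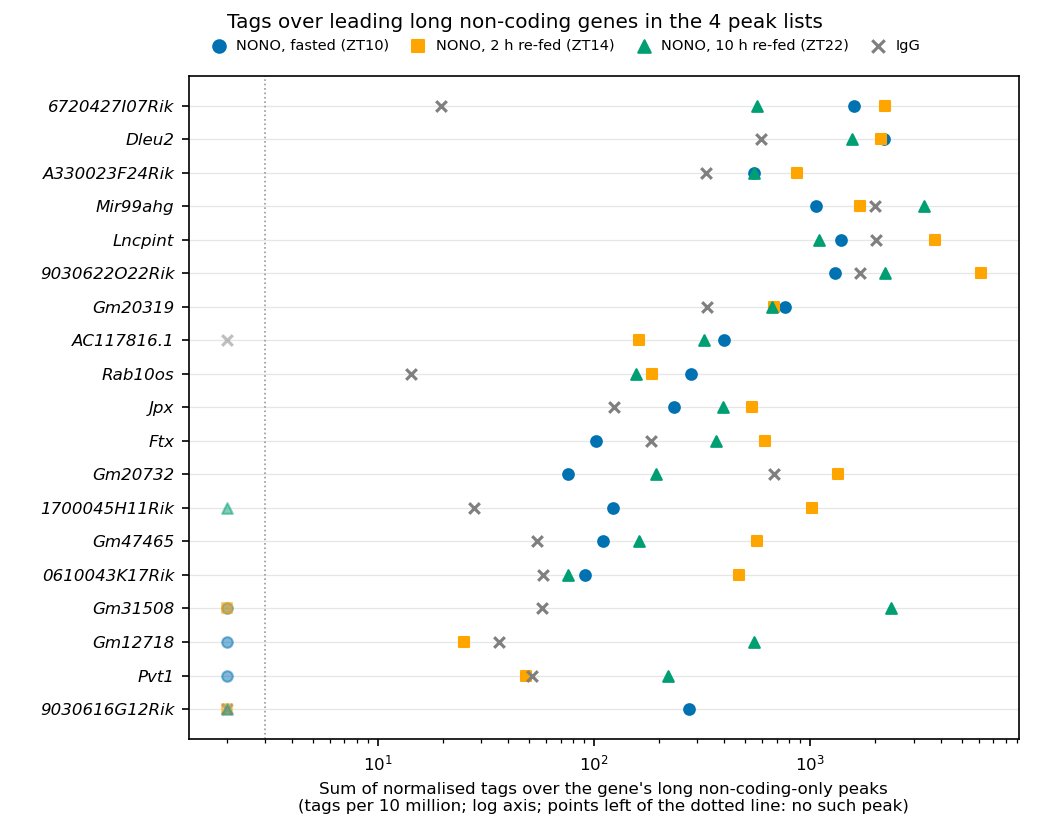
Sum of normalised tags over the long non-coding-only peaks of 19 leading genes (log x axis, tags per 10000000), with 1 point for each list: circles fasted, squares 2 h, triangles 10 h, crosses IgG as deposited. Points left of the dotted line mark lists without such a peak: 6720427I07Rik has its IgG cross far below its NONO points, and Gm31508 stands at 2366 tags at 10 h with no peak in the fasted and 2 h lists.

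The 10 h list held long genes that were nearly absent from the other times. Gm31508 (chr12:28910229-29041874, plus strand, 132 kb), an uncharacterised lincRNA gene past the 3′ end of Eipr1, had no peak in the fasted and 2 h lists, 23 peaks with 2366 tags at 10 h and 9 peaks with 57.4 tags in IgG (91.8 outside the 7SK peak). Of the 23 peaks at 10 h, 18 were IgG-free, with 1254 tags, and the fold over input summed over all 23 was 2.22. A list without a peak can still hold reads under the authors' thresholds, so no fold is given against those times. Gm12718 (chr4:103382500-103492040, plus strand, 110 kb), past the 3′ end of Oma1, had no fasted peak, 1 peak of 25.1 tags at 2 h, 20 peaks with 547.8 tags at 10 h and 4 with 36.4 tags in IgG (58.1 outside the 7SK peak). All 20 peaks at 10 h were IgG-free. Pvt1, the neighbour of Myc, had no fasted peak, 8 peaks with 48.4 tags at 2 h, 19 with 220.5 at 10 h and 7 with 51.6 in IgG (82.5 outside the 7SK peak). In lists cut to equal length by score, Gm31508 and Gm12718 kept these values, while Pvt1 had no 2 h peak and 8 at 10 h with 125.4 tags. None of the peaks of Gm31508 and Gm12718 at 10 h reached 4-fold over input.

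Other genes held the most tags at 2 h. 9030622O22Rik (95.5 kb), which lies past the 3′ end of Foxa2, a gene for a hepatocyte transcription factor, had the largest sum outside the ribosomal locus, with 1303 tags (fasted), 6137 (2 h), 2222 (10 h) and 1692 (IgG, 2707 outside the 7SK peak). Only 42.3, 358.0 and 702.6 of these tags in the NONO lists lay on IgG-free peaks, and that part was highest at 10 h, where 1 of its peaks was the IgG-free peak with the most tags in the list. Gm20732 carried 75.6 (fasted), 1340 (2 h), 193.2 (10 h) and 676.5 tags (IgG, 1082 outside the 7SK peak), none of them IgG-free. 1700045H11Rik, whose peaks lay within 2.73 kb of Errfi1, a feedback inhibitor of the EGF receptor, carried 122.2 tags (fasted) and 1021 (2 h), had no 10 h peak and held 27.9 in IgG (44.6 outside the 7SK peak). Both NONO peaks met the IgG peak. 0610043K17Rik carried 90.3 (fasted), 469.4 (2 h), 76.1 (10 h) and 57.9 tags (IgG, 92.6 outside the 7SK peak), and its IgG-free tags were 50.4, 412.0 and 76.1. Gm47465 carried 110.3, 566.0, 161.5 and 54.2 tags (86.7 outside the 7SK peak) in the same order, of which 110.3, 316.1 and 125.9 in the NONO lists were IgG-free. For these last 2 genes the 2 h list was thus highest on IgG-free peaks too. Normalised input tags under the peaks were also highest at 2 h for each gene of this paragraph. For 9030622O22Rik they were 616.0 (fasted), 2791 (2 h) and 1016 (10 h), with folds over input of 2.12, 2.20 and 2.19. Folds in the same order were 2.36, 2.13 and 2.17 for Gm20732, 2.53, 2.42 and 2.79 for 0610043K17Rik and 2.41, 2.80 and 3.39 for Gm47465. For 1700045H11Rik they were 2.17 (fasted) and 2.14 (2 h).

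A few genes held the most tags in the fasted list, and input tags under their peaks were highest there too. Folds over input by time were 2.44, 2.20 and 2.25 for AC117816.1, 2.93, 2.31 and 2.51 for Gm13483 and 2.36, 2.48 and 2.41 for Gm20319. AC117816.1 (2.28 kb), whose peaks lay between 0.768 and 3.32 kb past the 3′ end of A1cf, a gene for an RNA-binding cofactor of apolipoprotein B mRNA editing, carried 398.0 tags (fasted), 162.1 (2 h), 322.3 (10 h), with no IgG peak over the gene. At 2 h, 83.4 of these tags were IgG-free, since 1 of 2 peaks ran past the gene into an IgG peak. The order was therefore fasted, 10 h, 2 h. 9030616G12Rik had 1 fasted peak of 274.3 tags and 2.01-fold and no peak in the other 3 lists. Gm13483, next to the cobalamin gene Mmadhc, carried 271.0 (fasted), 156.5 (2 h) and 141.7 tags (10 h), with 9, 5 and 5 peaks, all IgG-free, and 1 IgG peak of 4.74 tags (7.58 outside the 7SK peak). Gm20319, past the 3′ end of the interleukin receptor gene Il1rap, carried 765.9 (fasted), 680.4 (2 h), 667.6 (10 h) and 331.7 tags (IgG, 530.6 outside the 7SK peak). Its IgG-free tags were 338.5, 161.7 and 142.3 by time, so that the fasted list was at least 2-fold above both other times on IgG-free peaks and not on the total.

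Between the fasted and 2 h lists, 258 long non-coding genes had a peak in both, and the sum of tags was at least 2-fold higher at 2 h for 91 of them (35.3%) and at least 2-fold higher in the fasted list for 37 (14.3%). Over all 6250 genes with a peak in both lists these shares were 44.9% and 7.98%. All genes are here protein-coding and long non-coding genes together, each counted with every peak over it. The median ratio of 2 h to fasted was 1.53 over the long non-coding genes and 1.80 over all genes, so the long non-coding genes stood less far to the 2 h side than all genes. Between the fasted and 10 h lists, 73 of 224 (32.6%) were at least 2-fold higher at 10 h and 19 (8.48%) in the fasted list, next to 32.1% and 9.26% of all 6071 genes, with medians of 1.48 and 1.44. These shares were near the background. From 2 h to 10 h, 70 of 365 (19.2%) were at least 2-fold higher at 10 h and 72 (19.7%) at 2 h, next to 13.0% and 24.0% of all 7049 genes, with medians of 0.92 and 0.80. The 3 comparisons share their lists with one another, and all ratios move with how much of each library fell in peaks.

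**Figure D3:**
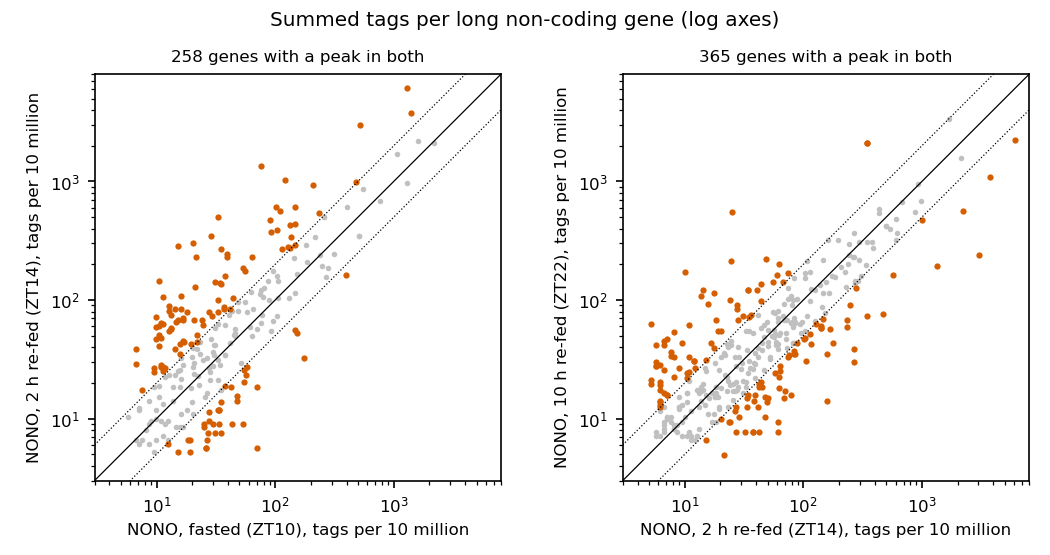
Summed normalised tags of each long non-coding gene with a peak in both lists (log axes), 2 h against fasted for 258 genes (left) and 10 h against 2 h for 365 genes (right). The solid line is equality, dotted lines mark 2-fold, and orange points lie at or beyond 2-fold: more of them lie above the lines on the left (91 above, 37 below), and similar numbers lie on both sides on the right (70 above, 72 below).

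Set against IgG in genes with a peak in both, the median ratio of NONO to IgG tag sums was 0.85 (fasted, 195 genes), 1.29 (2 h, 309) and 1.12 (10 h, 292) as deposited, next to 1.09, 1.93 and 1.52 for all genes. Scaled to IgG tags outside the 7SK peak it was 0.53, 0.80 and 0.70, next to 0.68, 1.21 and 0.95 for all genes. The median of the long non-coding genes was thus below that of all genes at each time under both scalings, and the scaling turned its direction at 2 h and 10 h.

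At least 1 IgG-free peak was found on 287 long non-coding genes in the fasted list, 423 at 2 h and 402 at 10 h, or 658 in all. All 3 times shared 128 of them, which is 44.6% (fasted), 30.3% (2 h) and 31.8% (10 h) of the genes at each time. As a share of the 658 genes this is 19.5%, whereas 50.2% of all 9774 genes with an IgG-free peak had one at each time. The fasted and 2 h lists shared 179 genes (62.4% and 42.3%), fasted and 10 h 167 (58.2% and 41.5%) and 2 h and 10 h 236 (55.8% and 58.7%). Long non-coding genes with IgG-free peaks at 1 time alone numbered 69 (fasted, 10.5% of 658), 136 (2 h, 20.7%) and 127 (10 h, 19.3%), against 5.67%, 11.7% and 10.1% of all genes. All genes are here protein-coding and long non-coding genes together, counted with every peak over them, whereas the 658 genes are counted on peaks outside protein-coding bodies alone. Most of the long non-coding genes carry a single peak. The parts of this counting rule and of peak number in the difference were not tested.

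**Figure D4:**
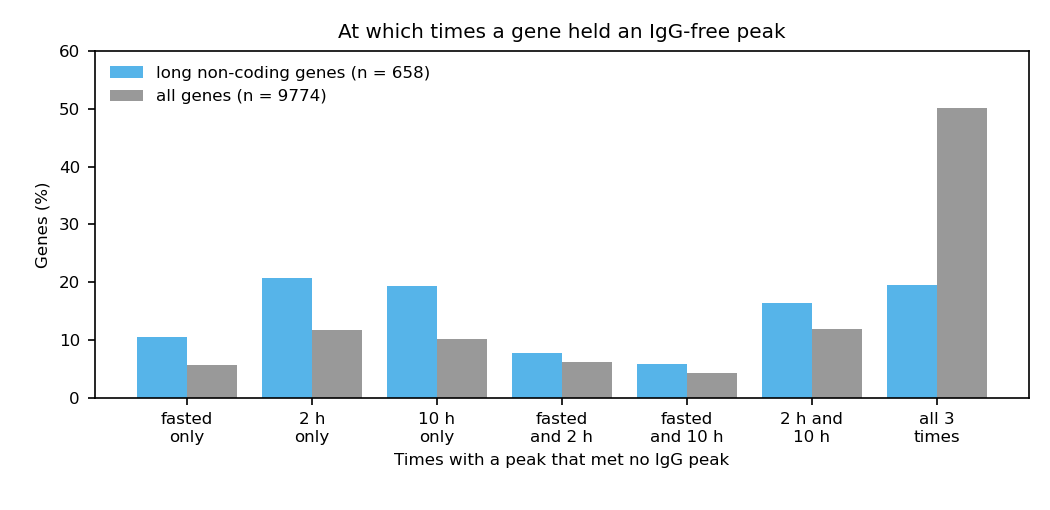
Share of genes (%) by the times at which they held a peak that met no IgG peak, for 658 long non-coding genes (blue) and all 9774 protein-coding and long non-coding genes (grey), in bars from 0. The blue bars count long non-coding-only peaks, and the grey bars count every peak over a gene. All 3 times together hold 19.5% of the long non-coding genes and 50.2% of all genes, and the bars for a single time are the higher ones for the long non-coding genes.

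Of the 128 genes, 42 had no IgG peak anywhere over the gene. AC117816.1 had the most tags among them. Gm30784, before the 5′ start of the bile salt and organic anion transporter gene Slco1a4, carried 78.4 tags (fasted), 106.7 (2 h) and 213.3 (10 h). Gm37305, beside the cyclin gene Ccnl1, carried 34.2, 138.5 and 135.2 tags in the same order. Gm31717, which RefSeq gives as a pseudogene, carried 40.9, 74.4 and 168.5 tags. These 3 genes were lowest in the fasted list. Gm32281, with 37.5, 158.8 and 35.0 tags, was highest at 2 h, and Gm42984 carried 12.8, 89.1 and 102.3 tags and 5730405O15Rik 27.6, 78.7 and 107.2 (22.3 at 2 h in lists of equal length). The 2 genes named last had IgG-free tags of 12.8, 89.1 and 102.3 for Gm42984 and 27.6, 22.3 and 26.8 for 5730405O15Rik, because part of its peaks ran past the gene into an IgG peak.

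In every list, IgG included, peaks of higher fold over input had fewer tags by median. Peaks were called with a tag threshold and a 2-fold minimum over input, and the part of these rules in this relation was not tested. Peaks of at least 4-fold numbered 175 (fasted), 355 (2 h), 217 (10 h) and 459 (IgG), with medians of 8.56, 7.59, 8.76 and 6.84 tags, and peaks under 4-fold had medians of 20.0, 25.6, 21.9 and 24.2. Scaled to the tags outside the 7SK peak, both IgG medians would be 1.60-fold higher and so above the NONO medians. At 100 tags or more there were 35 (fasted), 87 (2 h), 62 (10 h) and 54 (IgG) peaks, with a median fold of 2.36, 2.26, 2.25 and 2.29, of which only 5, 4, 4 and 1 reached 4-fold. The highest folds of each list, 32.5 (fasted, Gm2788), 27.0 (2 h, Gm26917), 33.8 (10 h, 5033403F01Rik) and 29.1 (IgG, equally in D830035M03Rik, D930016D06Rik and Gm47790), came with 0.5, 224.0, 0.4 and 0.5 input tags as deposited (unscaled in the fasted and 2 h files, scaled to the immunoprecipitate in the 10 h and IgG files), so that only the 2 h value, at the ribosomal locus, rests on a counted input.

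Rab10os (chr12:3235504-3250377, plus strand, 14.9 kb), a gene past the 3′ end of Rab10, a small GTPase of vesicle transport, combined many tags with a high fold. One peak in exon 4 held 260.1 tags at 15.95-fold in the fasted list, 185.4 at 8.46-fold at 2 h and 141.2 at 8.19-fold at 10 h, with 31.0, 44.0 and 31.5 input tags as deposited, and met no IgG peak. IgG had 2 peaks elsewhere on the gene, with 7.37 and 6.84 tags, in sum 14.2 (22.7 outside the 7SK peak). The tags and the fold were both highest in the fasted list. The stretch common to the 3 times, chr12:3238220-3239086, spans 867 bases with 48.6% G or C. Its central 300 bases (chr12:3238503-3238802, mm10, plus strand, from the GENCODE transcript) are printed because they lie under the peak with the highest fold among IgG-free peaks of at least 100 tags. Capitals mark TTGCAT, a motif chosen after the sequence was seen.
Rab10os exon 4: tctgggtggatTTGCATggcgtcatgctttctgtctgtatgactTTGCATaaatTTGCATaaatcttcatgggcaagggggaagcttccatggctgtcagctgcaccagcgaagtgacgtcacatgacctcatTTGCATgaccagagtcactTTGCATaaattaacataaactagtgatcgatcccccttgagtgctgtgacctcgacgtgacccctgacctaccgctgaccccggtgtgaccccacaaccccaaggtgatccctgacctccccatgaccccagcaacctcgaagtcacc

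TTGCAT occurred 5 times on the printed strand and 0 times on the other. At least 1 copy on either strand was present in 10.7% of 32851 RefSeq promoter windows of 300 bases, and 0 of those windows held 5 or more. The motif was picked from this stretch, and promoters are not a background of exons. These shares are therefore no measure of how rare such a stretch is. Only a sample of the 50-base words of this stretch was searched for on each strand, and no other GENCODE gene held any word of that sample. A match is a description of the letters and no evidence of a factor.

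Outside the ribosomal locus 3 further genes had an IgG-free peak of at least 100 tags and 4-fold in some list, and these were chosen after their values were seen. BC002059 had such a peak at all 3 times, with 129.3 tags at 4.31-fold (fasted), 176.4 at 4.07-fold (2 h) and 108.3 at 5.85-fold (10 h). C4a had one in the fasted list (120.8 tags, 10.43-fold) and at 2 h (149.8 tags, 4.56-fold), but RefSeq gives it as a transcribed pseudogene, and reads could be shared with its near-identical copy C4b. 4930481A15Rik had one of 174.5 tags and 4.54-fold in the fasted list.

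The ribosomal locus on chromosome 17 held the only IgG peak of at least 100 tags and 4-fold. Gm42418 and AY036118, which overlap each other, shared 1 peak of 510.6 tags (fasted), 343.7 (2 h), 2118 (10 h) and 6739 (IgG, 10779.5 outside the 7SK peak). Gm26917, beside them, carried 523.0, 3014, 240.8 and 6739 tags in the same order, of which the IgG value is that same peak. The NONO lists changed order from one gene to the next within this locus, all its peaks met an IgG peak, and an annotated ribosomal RNA gene lies under several of them.

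The genes of 5 fixed lists are given with all that had a peak. Of 5 annotated genes in the list for X inactivation, the silencing of 1 X chromosome in females, 3 had an IgG-free peak at each time. Xist, Tsix, Jpx and Ftx belong to the X inactivation centre, and Firre lies elsewhere on the X chromosome. Jpx, an activator of Xist, carried 233.9 (fasted), 538.1 (2 h), 396.1 (10 h) and 124.2 tags (IgG, 198.7 outside the 7SK peak), Ftx carried 102.1, 614.7, 367.8 and 182.8 (292.3), and Firre, a nuclear organiser on the X chromosome, carried 48.5, 95.7, 52.5 and 43.1 (69.0). All 3 were highest at 2 h as deposited. For Jpx the IgG-free tags alone were 233.9, 262.6 and 123.6. Xist and Tsix had no peak of any kind in any list. In lists of equal length Jpx carried 233.9, 260.3 and 349.6 tags and Firre 48.5, 29.4 and 22.4, so that neither was highest at 2 h, while Ftx, with 102.1, 526.5 and 358.0, still was.

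Of 10 annotated imprinted genes 3 had a peak. Snhg14, the long host transcript on the Prader-Willi interval, carried 20.9 tags (fasted), 128.9 (2 h), 62.4 (10 h) and 34.8 (IgG, 55.6 outside the 7SK peak). All its peaks lay 0.035 to 16.9 kb past the 3′ end of Ube3a. Without strand, Snhg14 and a transcript that runs on past Ube3a cannot be told apart there. Rian, host of small nucleolar RNAs, had 2 IgG-free peaks with 16.4 tags at 10 h alone, and Airn, the silencer of Igf2r, had 1 peak of 38.3 tags at 10 h and 8 with 75.3 tags in IgG (120.4 outside the 7SK peak). H19 and Meg3 had no peak of any kind. Kcnq1ot1 had 15 (fasted), 16 (2 h), 14 (10 h) and 15 (IgG) peaks, which all touch the protein-coding Kcnq1 and so are no members.

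Among 24 annotated small RNA hosts 10 had a peak, 6 (fasted), 5 (2 h), 6 (10 h) and 6 (IgG) per list. Besides the microRNA hosts above, Gas5 and Snhg8, hosts of small nucleolar RNAs, had a peak in IgG alone, with 107.9 and 74.8 tags. Snhg15 carried 21.4 (fasted), 39.4 (10 h) and 41.1 tags (IgG, 65.7 outside the 7SK peak), Snhg17 carried 10.9, 26.8 and 33.2 (53.1) in those lists, and neither had a 2 h peak. Snhg5 had 12.6 tags at 10 h alone. Snhg15 and Snhg17 thus stood below their IgG level. The peaks on Snhg14, all near Ube3a, stood above it at 2 h and, by little on the second scale, at 10 h (62.4 against 55.6).

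Of 26 other nuclear or structural genes 12 had a peak. 2900097C17Rik, the mouse Norad gene for an RNA that binds Pumilio proteins, carried 31.4 (fasted), 41.7 (2 h) and 39.4 tags (10 h) and none in IgG. Tug1 had 83.2 tags at 10 h and Trp53cor1, the p53-induced lincRNA-p21, had 8.21, both at 10 h alone. 1810026B05Rik, the Chd2-neighbouring Chaserr gene, carried 259.6 (fasted), 497.9 (2 h), 424.1 (10 h) and 459.1 tags (IgG, 734.4 outside the 7SK peak), none IgG-free. Dancr had 9.98 (fasted) and 11.9 tags (2 h), Platr4 had 61.2 (2 h), 38.9 (10 h) and 41.6 (IgG, 66.5 outside the 7SK peak, which is above both times), Bvht had 19.7 (10 h) and 193.2 (IgG, 309.0 outside the 7SK peak), and 1700020I14Rik had 9.48 in IgG alone. Malat1, an abundant nuclear speckle RNA, had no peak in any list. Over all 5 lists 46 annotated genes had no member peak, of which 36 had no peak of any kind in any list, 3 had one in IgG alone and 7 had NONO peaks that touch a protein-coding gene.

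Of 21 annotated liver genes 11 had a peak, 5 (fasted), 8 (2 h), 5 (10 h) and 8 (IgG) per list. Gm12909, beside the major urinary protein gene Mup3, had 262.2 tags at 2 h, 232.6 at 10 h and 30.0 in IgG (48.0 outside the 7SK peak) and no fasted peak. Of its tags, 169.7 at 2 h and none at 10 h were IgG-free. 1700001L05Rik had 34.7 (fasted) and 136.1 tags (2 h), all IgG-free, and no peak at 10 h or in IgG. 4833411C07Rik, whose peaks lay 80.5 to 81.7 kb past the 3′ end of the insulin receptor substrate gene Irs2, had 70.8 (fasted) and 18.5 tags (2 h), also with no 10 h and no IgG peak. Hnf1aos1 carried 26.6 (fasted), 6.64 (2 h), 25.7 (10 h) and 67.9 tags (IgG, 108.6 outside the 7SK peak), and Gm16551 carried 33.8, 11.9, 30.6 and 4.74 (7.58). F630028O10Rik, host of the myeloid miR-223, had 24.7 tags at 2 h alone, and 2610035D17Rik had 22.4 at 10 h and 4.74 in IgG (7.58). Hnf4aos (9.48) and A530020G20Rik (8.95) had IgG tags alone, and Gm32063 had 26.6 at 2 h and 30.5 in IgG (48.8). In lists of equal length the 2 h peaks of Hnf1aos1, Platr4 and Mir155hg and the 10 h peaks of 2610035D17Rik and Trp53cor1 were lost, and 1700001L05Rik carried 86.8 tags at 2 h and Rian 9.85 at 10 h.

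Many of the peaks lay near a protein-coding gene. Within 5 kb of one were 205 fasted peaks (29.0%, 25.7 to 32.5), 430 at 2 h (36.6%, 33.8 to 39.4), 369 at 10 h (32.8%, 30.1 to 35.7) and 311 for IgG (28.0%, 25.4 to 30.8). Past the 3′ end of that gene lay 10.8% (8.58 to 13.3), 13.1% (11.2 to 15.2), 11.9% (10.1 to 14.0) and 7.94% (6.41 to 9.69) of all peaks in the same order. The 2 h and 10 h shares past a 3′ end stood above the IgG share with intervals that do not overlap. Among IgG-free peaks alone the share past a 3′ end was 13.4% (fasted), 15.6% (2 h) and 14.6% (10 h). Peaks over 50 kb from any protein-coding gene made up 31.6% (fasted), 28.1% (2 h), 34.5% (10 h) and 32.9% (IgG). Without strand, such a peak and a transcript that runs on past the neighbouring gene cannot be told apart. The 5′ start of a long non-coding gene was covered by 1.84% (fasted), 5.02% (2 h), 2.85% (10 h) and 4.69% (IgG) of the peaks.

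Joined over the 4 lists, the peaks formed 2516 separate regions. All 4 lists shared 111 regions (4.41%), and 97 (3.86%) were in the 3 NONO lists and not in IgG. A single list held 1631 regions (64.8%), 250 of them fasted, 407 at 2 h, 458 at 10 h and 516 IgG. Joined in the same way, the peaks on protein-coding genes alone formed 101190 regions, of which 6.75% were in all 4 lists, 3.49% in the 3 NONO lists and not in IgG, and 59.2% in a single list. Regions found in 1 list alone were thus the larger part of both sets.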

How the data were processed

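RNA immunoprecipitation with anti-NONO (3 times) or IgG and matching inputs gave 8 samples, each a pool of 2 experiments. Per the submitters' processing notes, FastQC 0.11.2, STAR 2.4.0k, HOMER and mm10 were used. Peak calling by the authors was done against each input, per the file headers, in windows of 500 bp joined within 1000 bp, at a minimum of 2-fold and a tag threshold of 11 (8 for IgG). The authors deposited for each peak a signal in tags normalised to 10000000, a fold over input, a peak score and a p-value, which was not used. No count table was used, so no interval belongs to a single peak.

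Peaks were joined to GENCODE release 21 genes by an overlap of at least 1 bp. With 1 library in each group no test was possible, and lists were compared by counts, medians and tag sums. A tag sum over a gene adds peaks called separately in each list and moves with the length covered. Peaks lying on 2 genes count for both. Tag counts come from PCR reads that carry no molecular identifiers. Intervals are exact Clopper-Pearson at 95% on counts of peaks and cover counting error only, since each group had 1 library. They count each peak as independent and can be too narrow where several peaks lie on 1 gene. The join was tested on simulated data. Scripts ran under Python 3.11.15 with scipy 1.17.1, pandas 2.3.3 and numpy 2.4.6.

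The genes and lists were chosen with earlier results of these data known. Genes were named by a rule: for each time the 8 with the most tags on IgG-free peaks, the 5 with the most IgG-free peaks, up to 5 on each side of each pair of times by the difference in tags, up to 8 with IgG-free peaks at all 3 times and no IgG peak over the gene, the 5 with the most IgG tags, up to 3 by fold in each list, and every gene with a peak in 5 fixed lists. The microRNA hosts outside these lists (Lncppara, Gm27019) and BC002059, C4a and 4930481A15Rik were chosen after their values were seen. Alternatives were stricter folds, lists of equal length by score, other rules for IgG overlap and the omission of peaks or genes near protein-coding genes.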

Additional observations from a re-analysis of the deposited data

How the results depend on the processing

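Counts are in the order fasted, 2 h, 10 h and IgG, and tag-sum calls in the order 2 h over fasted, fasted over 2 h, 10 h over fasted, fasted over 10 h, 10 h over 2 h and 2 h over 10 h. At 4-fold over input or more, 175, 355, 217 and 459 peaks remained on 128, 232, 156 and 234 genes, IgG-free peaks numbered 154, 280 and 172 on 119, 203 and 125 genes (30 at all 3 times), and tag-sum calls numbered 15, 6, 7, 6, 10 and 14. With NONO lists of equal length, the 2 h list had 733 peaks and 385 IgG-free peaks on 260 genes, with 23 calls for fasted over 2 h and 42 for 10 h over 2 h. Without peaks within 5 kb of a protein-coding gene, genes numbered 182, 259, 256 and 276, genes with an IgG-free peak 151, 189 and 203 (78 at all 3 times), 2 h peaks 746, IgG-free peaks 425 (2 h) and 498 (10 h), and tag-sum calls 50, 22, 41, 9, 40 and 31. Without genes that touch a protein-coding gene, 412, 687, 655 and 631 peaks lay on 191, 325, 300 and 298 genes, IgG-free peaks numbered 308, 423 and 452 on 158, 234 and 230 genes (76 at all 3 times), and tag-sum calls 58, 20, 43, 9, 39 and 43. With an IgG peak anywhere over the gene as the criterion, 146, 275 and 243 IgG-free peaks lay on 123, 229 and 189 genes (45 at all 3 times). With 4-fold on tag sums the calls were 48, 9, 22, 3, 27 and 20. These losses follow in part from fewer peaks or genes being counted, and their further causes were not tested. An IgG peak within 1000 bp as the criterion, pseudogenes, and leaving out ribosomal and RefSeq protein-coding genes (added after the data were seen, as were the hairpin counts) kept every count they touch within 1.5 times. Counting a peak only where at least 50% of it lies in the gene, or leaving out peaks over small RNA genes, moved 2 and 4 hairpin counts, the latter to 0 by construction, and no other. No paired analysis was possible because a single library stands for every group, and for the same reason no replicate could be left out. Depth limits peaks near the tag threshold, and a gene without a peak may still hold reads.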
